A study of Mus musculus with 13 samples.

Results

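The genes described here encode the collagens, the laminins and a set of extracellular matrix glycoproteins and proteoglycans. They were chosen by symbol: every collagen chain gene (Col, a number, a, a number), every laminin chain gene (Lama, Lamb or Lamc with a number), and Fn1, Sparc, Nid1, Nid2, Hspg2, Agrn, Dcn, Lum, Bgn, Fbn1, Vcan and Postn. Of 67 such genes in the file, 58 had enough counts to be tested, among 15511 genes tested in all. The 9 left out for low counts were Col6a4, Col6a5, Col6a6, Col10a1, Col17a1, Col19a1, Col20a1, Col24a1 and Lamb3.

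The study measured RNA from mouse microglia, the resident macrophages of the brain, at postnatal day 4. Controls (CON) were compared with offspring exposed to maternal immune activation (MIA), that is, born to dams whose immune system had been stimulated during pregnancy. Cells came from the whole brain after the meninges had been removed and were pulled out with magnetic beads against CD11b, a surface protein of microglia and other myeloid cells. Each group had 5 retained libraries, and the titles mark 3 more as excluded (CON 6, MIA 6 and MIA 7). The mice were not perfused, so blood could remain in the vessels. The strain, genotype, sex and litter and the agent given to the dams are not stated in the labels, nor is whether a library is 1 animal. The p-values therefore measure the spread between these libraries.

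Extracellular matrix comes in different architectures. The basement membrane is a thin sheet, in the brain found around blood vessels and under the meninges, in which a laminin network and a type IV collagen network are joined by nidogens and the heparan sulfate proteoglycans perlecan (Hspg2) and agrin (Agrn). Fibrillar matrix is built of collagen types I, III and V, with small leucine-rich proteoglycans such as decorin and biglycan bound to the fibrils, and is typical of fibroblasts and connective tissue. Of the 58 genes tested, 20 belong to the basement membrane, 15 to fibrillar matrix and 20 are other collagens; Fn1, Sparc and Vcan were placed in neither class.

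Of the 58 matrix genes, 18 rose in MIA libraries and none fell by edgeR's quasi-likelihood test with Benjamini-Hochberg adjustment over all genes at 0.05. Over all 15511 genes, 5.75% were called higher (892) and 4.58% lower (710). At an unadjusted p under 0.05, 23 of the 58 were higher and 0 lower, against 1764 higher and 1754 lower of all 15511 genes, and DESeq2 and limma-voom also called 0 lower. The median log2 fold change was 0.45 for the matrix genes and -0.0085 for all genes tested. For 17 matrix genes every MIA library lay above every control library, as for 5.59% of all genes: 16 of the 18 called, all but Lamb1 and Hspg2, and Col3a1. All 18 genes called reached the count cutoff of the filter in each of the 5 control libraries, so none was tested only because of its level in MIA libraries. The class of basement membrane genes had 10 of 20 called higher (median log2 fold change 0.73) and fibrillar matrix 5 of 15 (0.37). Other collagens had 2 of 20 (0.28), and Fn1 was called of the remaining 3. The classes also differed in level, given as CPM (counts relative to the library's total after TMM scaling). At a mean of 10 CPM or more, 9 of 12 basement membrane genes and 5 of 8 fibrillar genes were called higher. Of the other collagens at that level it was 1 of 6, and of all genes 637 of 8734. The part of level in the difference between the classes was not tested.

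**Figure D1:**
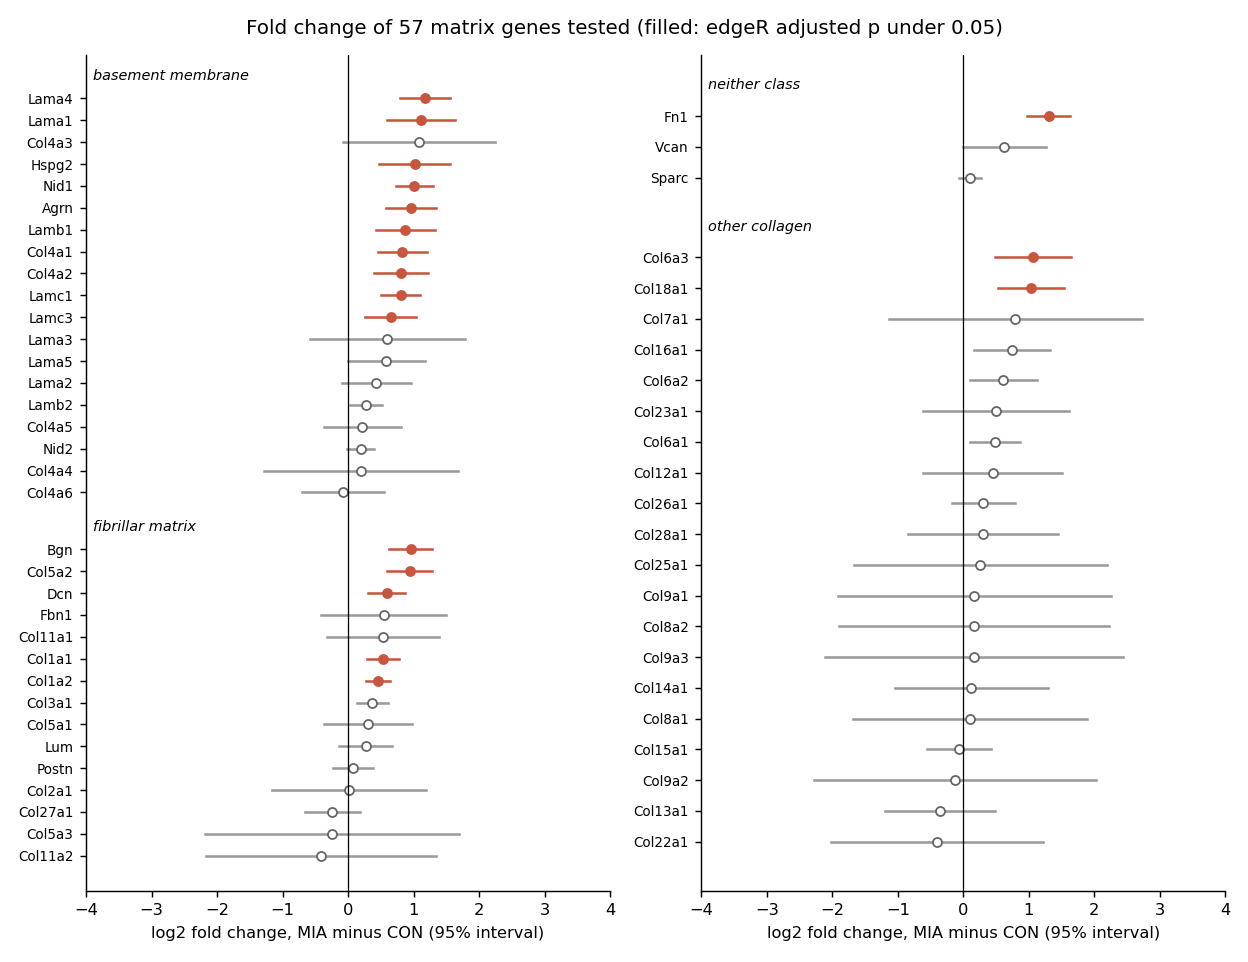
Log2 fold change (MIA minus CON, x axis) of 57 matrix genes tested, each with its 95% interval from the edgeR fit; rows are genes grouped by class, and filled red points passed the adjusted threshold. The 10 filled basement membrane genes lie between 0.65 and 1.18, the 5 filled fibrillar genes between 0.45 and 0.95, and no filled point lies below 0.

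Libraries held 25387100 to 35593500 counts, and levels are given as CPM, counts relative to the library's total after TMM scaling. CON 1 and CON 2 stood apart from the other controls: a list of 5 red blood cell genes summed to 45.5 and 58.96 CPM there and to 841 CPM or more in the other 8 libraries. Without CON 1 and CON 2, 21 matrix genes were called, 17 of them among the 18, and 6.83% of all genes were called higher. The microglial label held in every library, with 10 microglial markers summing to 22610 to 28944 CPM in the controls and 14873 to 19045 CPM in the MIA libraries, and all 10 fell. Markers of vessel cells were present as well and differed between groups. The 10 endothelial markers summed to 894 to 1419 CPM in the controls and 2557 to 4325 CPM in the MIA libraries, and all 10 rose. The 10 pericyte and smooth muscle markers summed to 392 to 722 CPM in the controls and 537 to 917 CPM in the MIA libraries, with 0 of 10 called, and the 10 fibroblast and meningeal markers to 142 to 336 CPM in the controls and 194 to 379.7 CPM in the MIA libraries, with 2 of 10 higher (Pdgfra, which precursors of oligodendrocytes also express, and Foxc1). In such bulk samples more cells of a type and more RNA per cell cannot be told apart, and the part of these cells in the matrix results was not tested.

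Upstream sequences of genes from both classes are shown so that the start regions of genes called higher in each class can be compared. They are the 250 bases before the transcription start in RefSeq (GRCm38.p6), cut short where an exon of GENCODE M21 begins. Such a window was matched for 39 of the 58 genes. Those printed belong to the 3 basement membrane genes and the 1 fibrillar gene called higher with the lowest p among those whose window is mostly free of exons, and to Col3a1, the fibrillar gene with the highest mean CPM. Capitals mark matches, on either strand, to 4 motifs: the box named for its letters CCAAT, then the GC box with the letters GGGCGG, the TATA box with the letters TATAAA, and an ETS core with the letters CGGAAG.
Nid1, chr13:13437352-13437550, plus strand: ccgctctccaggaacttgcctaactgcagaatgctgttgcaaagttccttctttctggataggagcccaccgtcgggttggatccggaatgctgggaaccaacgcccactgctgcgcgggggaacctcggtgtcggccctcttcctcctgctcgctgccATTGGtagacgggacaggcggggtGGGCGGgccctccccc
Agrn, chr4:156197489-156197738, minus strand: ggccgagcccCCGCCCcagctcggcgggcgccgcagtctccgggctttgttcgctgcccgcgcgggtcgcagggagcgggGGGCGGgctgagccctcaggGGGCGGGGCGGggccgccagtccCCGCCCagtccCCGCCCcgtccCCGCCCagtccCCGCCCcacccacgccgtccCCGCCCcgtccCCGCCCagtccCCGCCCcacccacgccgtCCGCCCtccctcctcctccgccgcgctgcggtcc
Lamb1, chr12:31265043-31265233, plus strand: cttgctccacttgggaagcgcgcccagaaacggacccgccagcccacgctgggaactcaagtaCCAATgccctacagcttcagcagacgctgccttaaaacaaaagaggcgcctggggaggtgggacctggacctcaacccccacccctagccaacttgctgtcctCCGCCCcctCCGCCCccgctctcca
Bgn, chrX:73483351-73483600, plus strand: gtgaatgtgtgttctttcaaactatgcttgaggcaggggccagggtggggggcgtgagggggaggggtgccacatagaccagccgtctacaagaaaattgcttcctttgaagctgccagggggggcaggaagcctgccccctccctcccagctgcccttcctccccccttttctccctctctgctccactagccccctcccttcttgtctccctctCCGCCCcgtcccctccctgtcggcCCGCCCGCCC
Col3a1, chr1:45311288-45311537, plus strand: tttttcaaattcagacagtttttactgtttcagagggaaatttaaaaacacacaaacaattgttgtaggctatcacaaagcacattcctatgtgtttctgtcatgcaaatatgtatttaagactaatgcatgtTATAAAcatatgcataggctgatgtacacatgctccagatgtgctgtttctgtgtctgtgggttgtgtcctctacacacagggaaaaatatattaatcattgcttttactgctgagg
The Nid1 and Lamb1 windows have 199 and 191 bases, the others 250. The Agrn window holds 12 GC box matches, of which 2 overlap by a base, and the Bgn window 3, of which 2 overlap. Nid1 and Lamb1 each hold a CCAAT match beside GC boxes. The Col3a1 window holds TATAAA and no GC box.

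Among 12 basement membrane genes with a window of 250 bases, 8 held a GC box, 5 a CCAAT box, 0 a TATA box and 1 an ETS core. Among 10 fibrillar genes the counts were 8, 3, 3 and 0. Of all 32851 mouse windows in the table, 32.7% held a GC box, 33.8% a CCAAT box, 12.4% a TATA box and 13.6% an ETS core. These shares are per window, whereas a gene above counted if any of its windows held the motif. These matches are a description of letters. The genes of the main type IV collagen lie head to head: Col4a1 starts at chr8:11312826 on the minus strand and Col4a2 at chr8:11312805 on the plus strand, so that their first 22 bases overlap. Col4a6 and Col4a5, which form another such pair on the X chromosome, have 1342 bases between their starts.

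Type IV collagen is the network-forming collagen of basement membranes, and its common trimer joins chains from Col4a1 and Col4a2. Col4a1 stood at 177, 169, 225, 284 and 249 CPM in CON 1 to CON 5 and at 330.2, 287, 460.4, 406 and 474 CPM in MIA 1 to MIA 5. The 2 groups did not overlap, although the lowest MIA library, MIA 2, lay just above the highest control, CON 4. Col4a1 rose (log2 fold change 0.83 ± 0.17 (SE), edgeR adjusted p = 0.00908). Its partner Col4a2 stood at 201, 118, 174, 201 and 228 CPM in the controls and 259.5, 234, 397, 339 and 384 CPM in the MIA libraries. Again MIA 2 and CON 5 came close without overlapping, and Col4a2 rose (log2 fold change 0.81 ± 0.19 (SE), edgeR adjusted p = 0.0188). Without MIA 5 the adjusted p of Col4a2 was 0.0526 and that of Lamb1 0.0508.

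The log2 ratio of Col4a1 to Col4a2 was -0.18, 0.526, 0.372, 0.503 and 0.129 in the controls and 0.347, 0.295, 0.215, 0.263 and 0.302 in the MIA libraries. The difference of the means was 0.014 (exact permutation test, 2-sided, p = 0.944, adjusted over 4 ratios 0.944, n = 5 each), and the MIA libraries spread less than the controls, where CON 1 alone was negative. The other 4 chains, which form trimers of more specialised basement membranes, had few counts. Col4a3, Col4a4, Col4a5 and Col4a6 had mean levels of 1.802 to 9.61 CPM over the 10 libraries, and none was called (intervals of the log2 fold change from -0.71 to 0.54 for Col4a6 to -0.072 to 2.24 for Col4a3).

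Laminins are trimers of an alpha, a beta and a gamma chain, and 5 of the 10 chains tested rose, among them 2 of the 5 alpha chains. Lama4 encodes the alpha chain typical of blood vessels and stood at 39.1, 40.4, 62.4, 60.5 and 57.9 CPM in CON 1 to CON 5 and 97.95, 88.2, 149, 120.3 and 135 CPM in MIA 1 to MIA 5. Every MIA library exceeded every control, and Lama4 rose most of the laminin chains (log2 fold change 1.18 ± 0.18 (SE), edgeR adjusted p = 0.00131). Lamc1, the gamma chain of most laminins, stood at 19.7, 17.3, 21.04, 26.3 and 21.2 CPM in the controls and 37.6, 31.8, 47.6, 32.02 and 35.3 CPM in the MIA libraries. MIA 3 was the highest, the groups did not overlap, and Lamc1 rose (log2 fold change 0.80 ± 0.14 (SE), edgeR adjusted p = 0.00233).

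Lama1, an alpha chain known from early embryonic and meningeal basement membranes, was low, at 4.62, 4.62, 6.55, 7.04 and 6.34 CPM in the controls and 14.2, 7.43, 14.1, 9.52 and 18.04 CPM in the MIA libraries. MIA 2 lay just above the highest control, and Lama1 rose (log2 fold change 1.12 ± 0.24 (SE), edgeR adjusted p = 0.00917). The beta chain Lamb1 rose from 58.8 ± 17.3 to 108 ± 21.4 CPM (SD, n = 5 each), a log2 fold change of 0.88 with edgeR adjusted p = 0.0177, with MIA 2 (77.1 CPM) inside the range of the controls. Lamc3 rose from 9.73 ± 1.52 to 15.3 ± 3.9 CPM (SD, n = 5 each), a log2 fold change of 0.65 with edgeR adjusted p = 0.0362, but passed in only 4 of 10 fits that left out 1 library, with adjusted p up to 0.0951. Of the chains not called, Lamb2 ranged over 72.99 to 101 CPM in the controls and 78.1 to 111 CPM in the MIA libraries (95% interval of the log2 fold change 0.024 to 0.52). Lama5, another vascular alpha chain, ranged over 4.98 to 17.1 CPM in the controls and 10.9 to 15.3 CPM in the MIA libraries, with its highest value in CON 1 (interval -0.0079 to 1.17). Without CON 1 and CON 2, Lamb2 and Lama5 were called. Lama2 and Lama3 had mean levels of 6.23 and 1.601 CPM and were not called.

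Nidogens link the laminin and type IV collagen networks. Nid1 stood at 126, 94.8, 112, 123 and 132 CPM in CON 1 to CON 5 and 189.9, 189, 287, 261 and 257 CPM in MIA 1 to MIA 5. The lowest MIA library, MIA 2, exceeded the highest control, CON 5, and Nid1 had the lowest p of the basement membrane genes (log2 fold change 1.01 ± 0.13 (SE), edgeR adjusted p = 0.000481). Its paralog Nid2 stood at 208, 205, 179, 175 and 197 CPM in the controls and 203, 189, 221, 219 and 271 CPM in the MIA libraries. The groups overlapped and Nid2 was not called (log2 fold change 0.20 ± 0.096 (SE), edgeR adjusted p = 0.253, 95% interval -0.012 to 0.40). The interval for Nid2 lies wholly below that for Nid1 (0.73 to 1.29), while a difference between the 2 paralogs was not tested.

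The heparan sulfate proteoglycans rose as well. Agrn stood at 59.2, 36.8, 70.8, 68.4 and 66.5 CPM in the controls and 101, 90.6, 140.1, 120.4 and 136 CPM in the MIA libraries. CON 2 was the lowest, the groups did not overlap, and agrin rose (log2 fold change 0.96 ± 0.18 (SE), edgeR adjusted p = 0.00457). Perlecan (Hspg2) rose from 24.98 ± 9.56 to 50.7 ± 11.4 CPM (SD, n = 5 each), a log2 fold change of 1.02 with edgeR adjusted p = 0.0221. Its groups overlapped, since CON 1 reached 40.2 CPM and the lowest MIA library 37.1 CPM. Hspg2 was called in 5 of the 10 fits without 1 library (adjusted p up to 0.0596). The sum of the endothelial markers also separated the groups without overlap, and its part in the basement membrane values was not tested.

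**Figure D2:**
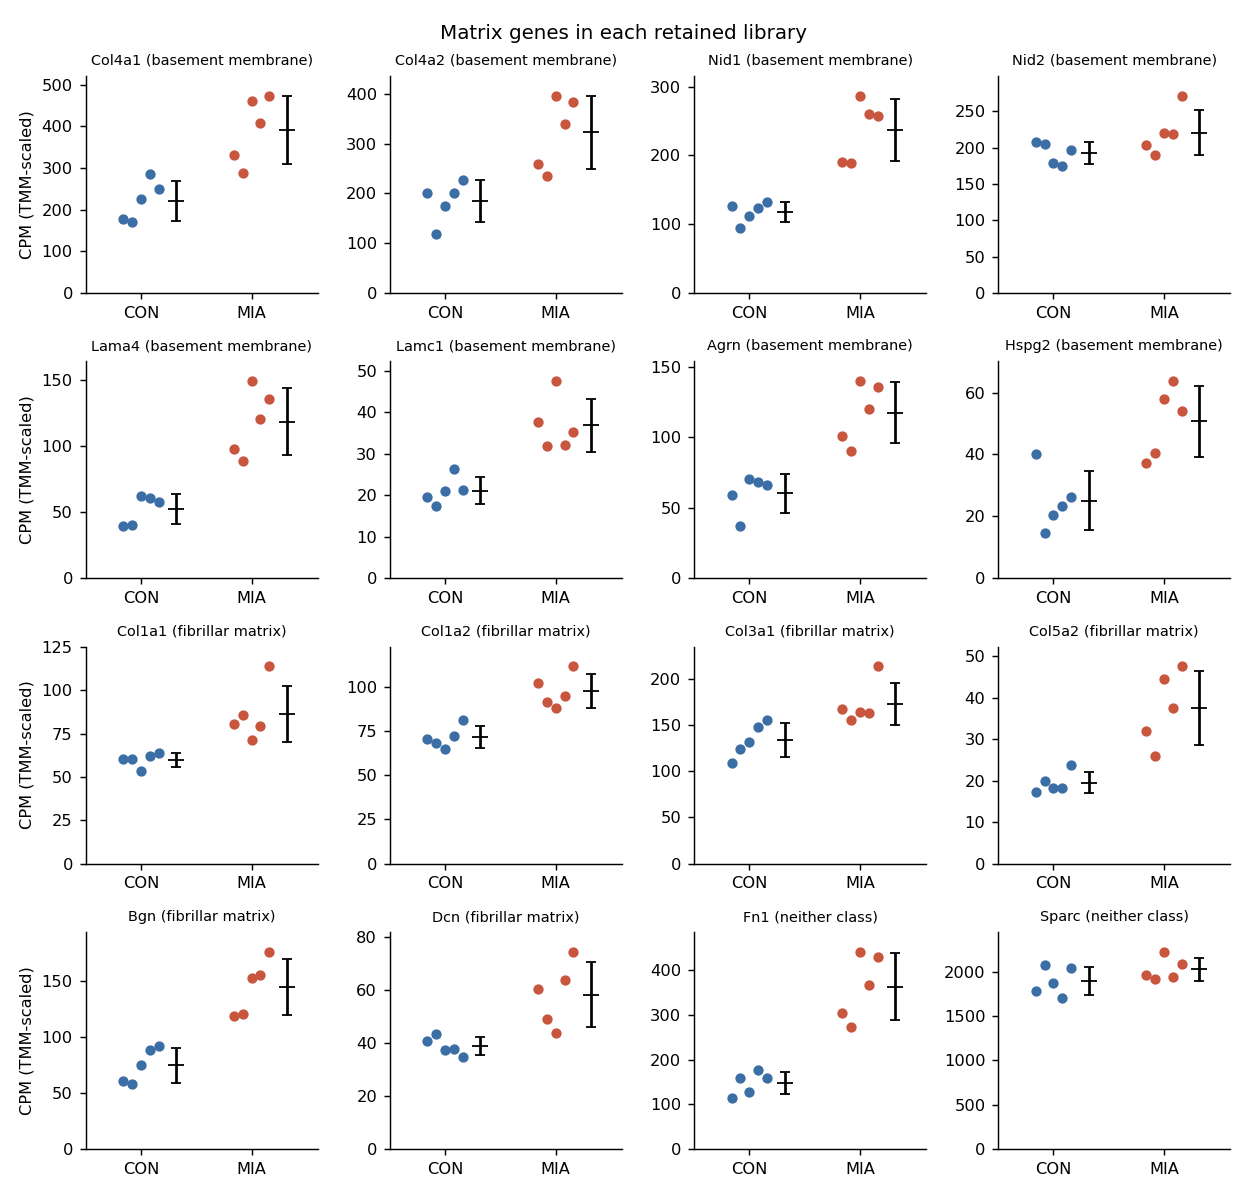
Level in CPM (TMM-scaled, y axis from 0) of 16 matrix genes in CON 1 to CON 5 (blue points, in order from left) and MIA 1 to MIA 5 (red points), with the mean and SD of each group (black bars, n = 5). Col4a1, Nid1, Lama4 and Fn1 show MIA points wholly above the controls, Hspg2 overlaps through CON 1, and Nid2 and Sparc overlap broadly.

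The 5 fibrillar genes called rose by 1.37 to 1.94 times in their means, and the 10 basement membrane genes by 1.57 to 2.27 times. Type I collagen, the main fibril former of connective tissue, is a trimer of Col1a1 and Col1a2 chains. Col1a1 stood at 60.1, 60.2, 53.4, 61.9 and 63.6 CPM in CON 1 to CON 5 and 80.5, 85.6, 71.3, 79.6 and 114 CPM in MIA 1 to MIA 5. MIA 5 was the highest and no MIA library fell within the control range, and Col1a1 rose (log2 fold change 0.53 ± 0.11 (SE), edgeR adjusted p = 0.00951). Col1a2 stood at 70.4, 68.1, 64.6, 72.1 and 81.2 CPM in the controls and 102, 91.3, 87.9, 94.9 and 112 CPM in the MIA libraries, and it rose (log2 fold change 0.45 ± 0.085 (SE), edgeR adjusted p = 0.00441). Its groups did not overlap either.

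The log2 ratio of Col1a1 to Col1a2 ran from -0.351 to -0.179 in the controls and from -0.338 to 0.0298 in the MIA libraries (exact permutation test, 2-sided, p = 0.476, adjusted p = 0.635). Col3a1, the type III chain and the fibrillar gene with the highest mean CPM, stood at 109, 125, 132, 148 and 156 CPM in the controls and 168, 156, 165, 163 and 214 CPM in the MIA libraries. The groups touched without overlapping, with CON 5 and MIA 2 nearly equal, and the test missed the threshold (log2 fold change 0.37 ± 0.11 (SE), edgeR adjusted p = 0.0502, 95% interval 0.13 to 0.61). Of the 10 fits that left out 1 library, Col3a1 passed in 1, without CON 5 (edgeR adjusted p = 0.0368). The highest adjusted p was 0.147, without MIA 5. Over all 21 alternative settings it was called in 7. These include the fit with MIA 6 and MIA 7 added, an alternative chosen after seeing the data (edgeR adjusted p = 0.0202).

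Col5a2, a chain of the type V collagen that sits in the core of type I fibrils, stood at 17.3, 19.995, 18.2, 18.3 and 23.7 CPM in the controls and 31.8, 26.04, 44.5, 37.4 and 47.5 CPM in the MIA libraries. It did not overlap and rose (log2 fold change 0.94 ± 0.16 (SE), edgeR adjusted p = 0.00213), by more than the type I chains in point estimate. The remaining chains of the fibrillar collagens (Col2a1, Col5a1, Col5a3, Col11a1, Col11a2 and Col27a1) had means of 0.59 to 5.64 CPM over the 10 libraries, and none was called. In all, 3 of the 10 fibrillar collagen chains tested were called.

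Of the proteins that bind fibrils, biglycan (Bgn) stood at 60.5, 58.2, 75.3, 88.3 and 91.9 CPM in the controls and 119, 121, 153, 156 and 177 CPM in the MIA libraries. The lowest MIA library exceeded the highest control, and Bgn had the lowest p of the fibrillar class (log2 fold change 0.95 ± 0.15 (SE), edgeR adjusted p = 0.00176). Decorin (Dcn), the related proteoglycan that coats type I fibrils, stood at 40.6, 43.5, 37.4, 37.8 and 34.8 CPM and 60.4, 49.2, 43.9, 63.7 and 74.6 CPM. MIA 3 lay next to the highest control, the groups did not overlap, and Dcn rose (log2 fold change 0.59 ± 0.13 (SE), edgeR adjusted p = 0.0118). Lumican (Lum), periostin (Postn) and fibrillin-1 (Fbn1) were not called. Lum ranged over 7.41 to 15.5 CPM in the controls and 11.3 to 14.98 CPM in the MIA libraries, Postn over 23.4 to 35.3 CPM in the controls and 24.99 to 36.3 CPM in the MIA libraries, and Fbn1 over 2.58 to 12.3 CPM in the controls and 4.99 to 12.4 CPM in the MIA libraries, with the highest control value of Fbn1 in CON 1. Fbn1 was called without CON 1, and also without both CON 1 and CON 2. The sum of the fibroblast and meningeal markers, whose part in the fibrillar values was not tested, overlapped between the groups. Among the controls that sum was highest in CON 1 (336 CPM), as was the sum of 6 choroid plexus markers (15779 CPM). The part of choroid plexus RNA in the fibroblast and meningeal sum was not tested.

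The classes were then set side by side within each library. The mean log2 CPM of the 20 basement membrane genes was 4.17, 3.75, 3.78, 4.33 and 4.13 in CON 1 to CON 5 and 4.73, 4.49, 4.79, 4.78 and 4.84 in MIA 1 to MIA 5, and the groups did not overlap. For the 15 fibrillar genes it was 3.65, 3.23, 3.26, 3.43 and 3.19 in the controls and 3.701, 3.605, 3.22, 3.85 and 4.15 in the MIA libraries, and the groups overlapped through CON 1 and MIA 3. The basement membrane mean minus the fibrillar mean was 0.68 ± 0.22 in controls and 1.02 ± 0.33 in MIA libraries (SD, n = 5 each), with the ranges overlapping, and is given as a description with no test.

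The ratio of a leading gene of each class gave no difference past the threshold. The log2 ratio of Col4a1 to Col1a1 was 1.56, 1.49, 2.07, 2.199 and 1.97 in the controls and 2.03, 1.75, 2.69, 2.35 and 2.06 in the MIA libraries. The means differed by 0.32 (exact permutation test, 2-sided, p = 0.167, adjusted p = 0.333). For Col4a2 to Col1a2 the ratio was 1.51, 0.787, 1.43, 1.48 and 1.49 in the controls and 1.35, 1.36, 2.17, 1.84 and 1.78 in the MIA libraries, a difference of 0.36 (exact permutation test, p = 0.119, adjusted p = 0.333). With 5 against 5 libraries the smallest p such a test can give is 0.00794. A difference between the classes in these genes was thus not shown.

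The order of the MIA libraries within each class is given as a description, with no test. MIA 5 had the highest mean of both classes and was among the top 2 MIA libraries for 7 of the 10 basement membrane genes and all 5 fibrillar genes called. MIA 3 was the highest MIA library for 6 of the 10 basement membrane genes called and the lowest for 3 of the 5 fibrillar genes called. MIA 5 was the highest for all 5 fibrillar genes and for 3 basement membrane genes, and MIA 2 was the lowest for 8 of the 10 basement membrane genes. MIA 3 also had the highest sum of endothelial markers (4325 CPM, against 2557 to 3629 CPM in the other MIA libraries) and the lowest sum of fibroblast and meningeal markers (194 CPM, against 251 to 379.7 CPM). Its sum of 6 choroid plexus markers was likewise the lowest of the MIA libraries (751 CPM, against 2452 to 12807 CPM). MIA 5, highest in both classes, was highest in neither of the first 2 sums. It had 3629 CPM of endothelial markers and 348 CPM of fibroblast and meningeal markers, against 379.7 CPM in MIA 1. No association of these sums with the class values was computed over the libraries, and their part in them was not tested.

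**Figure D3:**
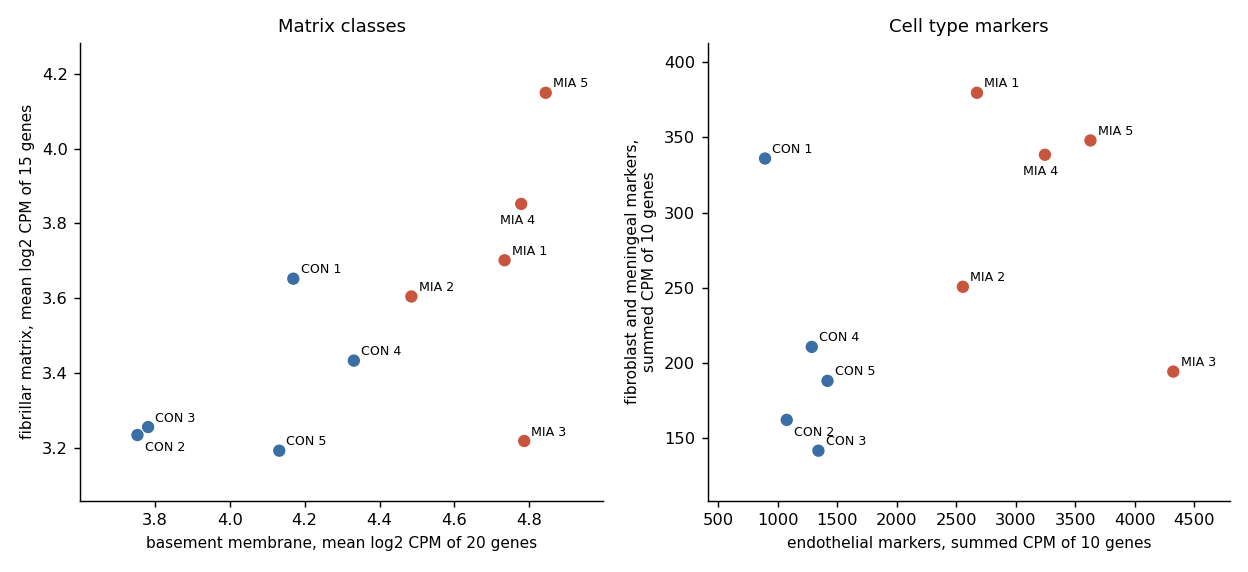
Left, mean log2 CPM of the 15 fibrillar genes (y axis) against that of the 20 basement membrane genes (x axis); right, summed CPM of 10 fibroblast and meningeal markers (y axis) against that of 10 endothelial markers (x axis). Each point is 1 library, blue for CON and red for MIA; MIA 3 sits at the right and low in both panels, and MIA libraries lie to the right of all controls in both.

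Fibronectin (Fn1), the adhesive glycoprotein that bridges cells and many matrices, had the largest log2 fold change of the 58 genes. It stood at 115, 158, 127, 177 and 159 CPM in CON 1 to CON 5 and 303, 273, 442, 367 and 430.2 CPM in MIA 1 to MIA 5. The lowest MIA library lay above the highest control, and Fn1 rose (log2 fold change 1.30 ± 0.15 (SE), edgeR adjusted p = 0.000317, a 2.47-fold difference of the means). Sparc, a collagen-binding glycoprotein made by microglia and endothelial cells, stood at 1780.4, 2078, 1873, 1706 and 2045 CPM in the controls and 1967, 1917, 2229.9, 1942 and 2088 CPM in the MIA libraries. The groups overlapped broadly and Sparc was not called (log2 fold change 0.097 ± 0.078 (SE), edgeR adjusted p = 0.524, 95% interval -0.072 to 0.27). Versican (Vcan), a large chondroitin sulfate proteoglycan, ranged over 2.96 to 7.75 CPM in the controls and 5.09 to 10.5 CPM in the MIA libraries and was not called (interval -0.011 to 1.26).

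Levels of different genes were compared per kilobase of annotated exon. In the controls Sparc stood at 501 CPM per kilobase. Nid2 followed at 37.2, Col4a1 at 29.6 and Col4a2 at 27.8 CPM per kilobase among genes with a length, which Hspg2 and Lamb1 lacked. The most abundant fibrillar genes on this scale were Col3a1 with 13.6 and Bgn with 12.3 CPM per kilobase.

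Of the 20 other collagens, Col18a1 and Col6a3 rose. Col18a1 encodes a collagen of the basement membrane zone that carries heparan sulfate and stood at 50.8, 73.7, 97.9, 101 and 118 CPM in the controls and 159, 125, 220.3, 179.8 and 219 CPM in the MIA libraries, without overlap (log2 fold change 1.03 ± 0.23 (SE), edgeR adjusted p = 0.016). Its relative Col15a1 ranged over 5.07 to 10.3 CPM in the controls and 4.57 to 9.37 CPM in the MIA libraries and was not called (interval -0.56 to 0.42). Type VI collagen forms beaded filaments from chains of Col6a1, Col6a2 and Col6a3. Col6a3 stood at 4.24, 2.22, 4.13, 4.52 and 3.88 CPM in the controls and 8.17, 10.99, 9.44, 4.54 and 6.55 CPM in the MIA libraries, where MIA 4 lay next to the highest control, and it rose (log2 fold change 1.06 ± 0.27 (SE), edgeR adjusted p = 0.0222), though its adjusted p exceeded 0.05 without MIA 2 or without MIA 3, up to 0.0611. Col6a1 ranged over 21.96 to 33.001 CPM in the controls and 27.3 to 47.8 CPM in the MIA libraries and Col6a2 over 20.6 to 25.9 CPM in the controls and 21.1 to 52.9 CPM in the MIA libraries. Neither was called (edgeR adjusted p = 0.113 and 0.133).

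Some of these collagens varied between libraries far more than between groups. Col9a3 stood at 175, 6.798, 5.59, 71.2 and 39.9 CPM in CON 1 to CON 5 and 93.5, 31.3, 10.8, 116 and 82.4 CPM in MIA 1 to MIA 5, 59.7 ± 69.8 CPM in control and 66.8 ± 44.1 CPM in MIA libraries (SD, n = 5 each), and was not called. Col8a1, Col8a2 and Col9a2, named after their values were seen, had their highest level in CON 1 and their lowest in CON 3 as well. A list of 6 choroid plexus markers summed to 15779, 391, 27.4, 7877 and 3779.6 CPM in CON 1 to CON 5 and 9431, 2452, 751, 12807 and 7980.1 CPM in MIA 1 to MIA 5, also highest in CON 1 and lowest in CON 3. The part of choroid plexus RNA in these collagens was not tested.

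Genes that process, cut or sense the matrix were read from 3 lists, whose median log2 fold changes were 0.015, 0.59 and 0.23, against -0.0085 for all genes. Of 28 genes of collagen processing tested, 2 rose (7.14%, against 5.75% of all genes) and 0 fell (against 4.58%), a share near that of all genes. Serpinh1, the collagen chaperone of the endoplasmic reticulum, rose from 118 ± 20.7 to 227 ± 32.4 CPM (SD, n = 5 each; log2 fold change 0.94, edgeR adjusted p = 0.000665), and Colgalt2, which adds galactose to collagen, from 5.45 ± 1.64 to 10.5 ± 2.32 CPM (log2 fold change 0.95, edgeR adjusted p = 0.0191). Of 24 matrix proteases and inhibitors tested, 4 rose (16.7%) and 0 fell. They were the serine protease Htra1 (from 25.9 ± 3.61 to 54.7 ± 8.499 CPM; log2 fold change 1.08, edgeR adjusted p = 0.000226), the plasminogen activator Plat (log2 fold change 0.79, edgeR adjusted p = 0.00563), the metalloprotease inhibitor Timp1 (log2 fold change 1.21, edgeR adjusted p = 0.0191) and the metalloprotease Adamts9 (log2 fold change 1.26, edgeR adjusted p = 0.0375).

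Of 28 matrix receptors tested, 4 rose and 4 fell (14.3% each way, against 5.75% and 4.58% of all genes). The collagen receptor subunit Itga1 rose from 63.2 ± 11.4 to 114 ± 24.7 CPM (log2 fold change 0.85, edgeR adjusted p = 0.00516), and the fibronectin receptor subunit Itga5 from 40.97 ± 8.08 to 64.1 ± 10.7 CPM (log2 fold change 0.65, edgeR adjusted p = 0.0117). The laminin receptor Bcam (log2 fold change 0.72, edgeR adjusted p = 0.0389) and the collagen receptor subunit Itga2 (log2 fold change 1.00, edgeR adjusted p = 0.0413) also rose. The laminin receptor subunit Itga6 fell from 107 ± 10.4 to 82.3 ± 8.67 CPM (log2 fold change -0.37, edgeR adjusted p = 0.0187), and the hyaluronan receptor Cd44 from 32.98 ± 3.27 to 24.3 ± 2.92 CPM (log2 fold change -0.44, edgeR adjusted p = 0.019). The beta subunits Itgb3 (log2 fold change -0.65, edgeR adjusted p = 0.0298) and Itgb5 (log2 fold change -0.44, edgeR adjusted p = 0.0352), partners in receptors for vitronectin, fell too.

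The libraries marked as excluded entered none of the tests above, except some of the alternative settings counted for Col3a1. Their values were set beside the others after scaling all 13 libraries together. In CON 6 all 18 matrix genes called lay above every retained control, with a median of 1.90 times the control mean, and in MIA 6 and MIA 7 17 of 18 did, with medians of 1.66 and 1.76 times. The 18 were called against those same controls, and the share of all genes above them in these libraries was not computed. Nid1 stood at 226 CPM, Col4a1 at 429.9 CPM and Fn1 at 328 CPM in CON 6, within the range of the retained MIA libraries. The sum of endothelial markers in CON 6 was 2704 CPM, above the retained controls. The pericyte and smooth muscle sum in CON 6 was 1280.3 CPM, the highest of the 13 libraries, and the microglial sum was 19913 CPM, below every retained control. With all 13 libraries in the fit, 7 matrix genes were called (Nid1, Lama4, Fn1, Col1a1, Col1a2, Col5a2 and Dcn), among 659 genes in all, and 2.71% of the genes tested were called higher. With CON 6 alone left out, an alternative chosen after seeing the data, 19 were called, the 18 and Col3a1. In that fit 1375 genes were called in all, and 5.32% of the genes tested were called higher.

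**Figure D4:**
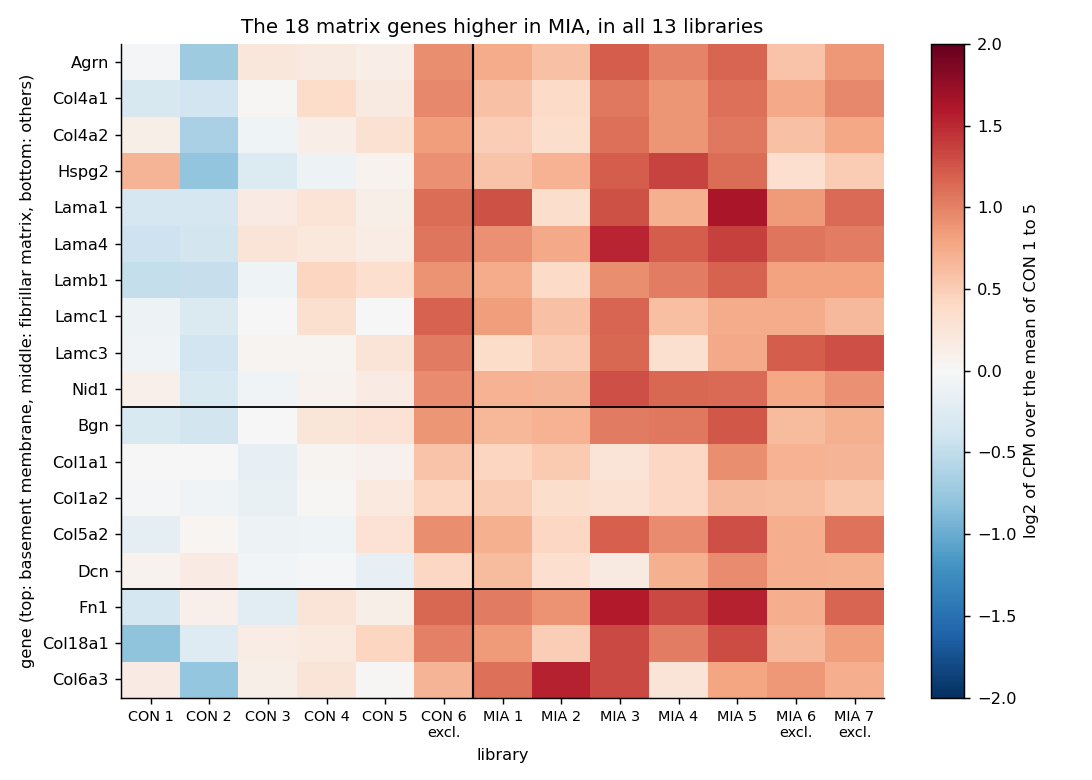
Colour gives the log2 of the level in CPM over the mean of CON 1 to CON 5 for the 18 matrix genes called (rows, by class) in each of the 13 libraries (columns, with the 3 excluded ones marked). CON 6 lies above all 5 retained controls in each of the 18 rows, and MIA 6 and MIA 7 in 17. The 18 genes were called against those controls, and the share of all genes above them was not computed. Some retained controls are redder than some MIA cells of other rows, such as Hspg2 in CON 1.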

How the data were processed

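RNA was measured by bulk sequencing of CD11b-selected cells from the brains of mice at postnatal day 4. Per the labels' protocols, cDNA was primed with oligo-dT and amplified after Smart-Seq2, and libraries were made by tagmentation, without strand information. The authors deposited unnormalized expected counts, which are estimates and can be fractions, for 55487 genes in 13 libraries. RSEM, STAR and DESeq2 are named in the submitters' processing notes without versions or roles, and neither a genome build nor an annotation release is stated in the labels. Of the nonzero values 20.6% were not whole, and all were rounded, by at most 0.5. Symbols were assigned by Ensembl ID (55141 matched with or without the version).

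Groups follow the titles. The 5 CON and 5 MIA retained libraries were compared using edgeR 4.0.16 under R 4.3.3, with filterByExpr (at least 10 counts at the median depth, here 0.343 CPM, in 5 libraries), TMM scaling and a robust quasi-likelihood fit, adjusted over 15511 genes. The SE is the absolute log2 fold change over the square root of F. Log2 CPM and log2 ratios used a prior count of 2, and 4 ratios were tested by exact permutation. A value of 0 allows up to 3 counts, which came to 0.0843 to 0.118 CPM by library and covers counting error only. Exon lengths of 61 of the 67 genes came from GENCODE M21 by exact ID and cover the union of all annotated exons. Reads shared by overlapping or antisense genes cannot be told apart without strand. Alternatives used other scalings and filters, DESeq2 1.42.0, limma-voom (limma 3.58.1), a replicate block, the excluded libraries and leaving out each library.

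The members, classes and lists were chosen with earlier results of these data known. Named are, per class, every member past the threshold (values in every library for up to 6, by lowest p) and the 4 members with the highest mean CPM, and up to 4 genes past the threshold per pathway list. Others are given by counts, ranges or, where singled out, as such. A gene that the rule takes is counted but not reported here.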

Additional observations from a re-analysis of the deposited data

Results flagged for a closer look

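Col3a1 in MIA 5 stood at 214.1 CPM, apart from the other MIA libraries at 156.2 to 167.7 CPM. Col6a3 in CON 2 stood at 2.218 CPM, below the other controls at 3.877 to 4.52 CPM. The log2 ratio of Col4a2 to Col1a2 in CON 2 was 0.7866, below the other controls at 1.427 to 1.51. These were the 3 of 70 groups of 5 libraries in which a library's gap to its neighbour exceeded Dixon's 95% critical value of 0.71, and chance alone passes it in about 1 of 20 groups.

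The libraries marked as excluded entered only the alternative fits with 12 or 13 libraries, and their values are given here. Of the 18 matrix genes called, 18 lay above all 5 retained controls in CON 6, 17 in MIA 6 and 17 in MIA 7, with Hspg2 the exception in both MIA libraries. The 18 were called against those controls, and the share of all genes above them was not computed. The labels do not state why these libraries were excluded.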

How the results depend on the processing

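The fits without 1 library called 14 to 21 matrix genes, 6 to 12 basement membrane genes (6 without MIA 5) and 5 to 6 fibrillar genes, among 1037 to 2263 genes in all (1602 in the reported fit, 1037 without MIA 5 and 1057 without MIA 4). Of the 18 matrix genes, 13 were called in each of these 10 fits; Lamc3, Hspg2, Col6a3, Col4a2 and Lamb1 were not. With all 13 libraries 659 genes, 7 matrix genes and 2 basement membrane genes were called, the 2 being Nid1 and Lama4, and 4 fibrillar genes; the cause was not tested. The other scalings, filters and tools called 15 to 19 matrix genes and 7 to 10 basement membrane genes, among 1426 to 2174 genes in all. The share of all genes called higher ran from 3% with no filter on low counts (27605 genes tested) to 8.95% with a strict filter of 10 CPM in 5 libraries (8759 genes tested). Total counts alone raised the share of calls that were higher from 55.7% to 67.6% and shifted the median of all genes to 0.052. No matrix gene was called lower in any of these fits. A replicate block gave 1524 genes, 19 matrix genes and 11 basement membrane genes, losing Col6a3 and gaining Col3a1 and Col4a3; same-numbered libraries correlated by 0.058 to 0.30, with only replicate 3 closest to its own number, so the numbers were not taken as pairs. Col9a3 changed sign without CON 2 (-0.125), CON 3 (-0.131) or MIA 4 (-0.129), over a range of -0.131 to 1.11, and the log2 ratio of Col4a1 to Col4a2 without CON 1 (-0.0981), CON 5 (-0.0207) or MIA 1 (-0.00136), over a range of -0.0981 to 0.0785; neither passed a test. Of the 58 genes, 30 had means under 10 CPM, among them Lama1 and Col6a3, which were called. In 25 of the 40 genes not called the 95% interval reached a log2 fold change of 1 or more. They include Col9a3, with a mean of 63.2 CPM over the 10 libraries. The part of depth in these intervals was not tested.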

Other observations

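Markers of other brain cells differed between groups as well. The 6 neuronal markers summed to 50.7 to 68.5 CPM in the controls and 97.04 to 145 CPM in the MIA libraries, and 4 of 6 rose. The 6 markers of oligodendrocyte precursors summed to 22.995 to 51.5 CPM in the controls and 54.5 to 116 CPM in the MIA libraries, with 1 of 6 called higher (Pdgfra, which is also in the fibroblast list). None of the 6 markers of astrocytes, of choroid plexus or of border-associated macrophages, the macrophages of vessels and meninges, was called by edgeR. In CON 6 the neuronal sum was 64.9 CPM and in MIA 6 and MIA 7 it was 69.7 and 59.7 CPM, near or within the range of the retained controls, whereas their endothelial sums (2704, 2172 and 2376 CPM) exceeded it.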
